A study of Mus musculus with 2 samples.

Results

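The nuclear genes for subunits of the mitochondrial respiratory chain were examined in mouse ureters cultured with the SMO inhibitor cyclopamine. Members were the non-control probes present on both arrays whose gene name began with Ndufa, Ndufb, Ndufc, Ndufs, Ndufv, Uqcr, Cox4i, Cox5, Cox6, Cox7 or Atp5, or was Sdha, Sdhb, Sdhc, Sdhd or Cycs, with the assembly factors named Ndufaf left out. This gave 125 probes for 84 genes, of 39429 probes and 29924 gene names on the array, and 1 probe per gene was used, the brightest over the 4 channels. By gene name, 38 of the 84 were put with complex I, 4 with complex II, 8 with complex III, 1 with cytochrome c, 15 with complex IV and 18 with complex V. Complex I thus holds Ndufa4 and its relative Ndufa4l2, though Ndufa4 is now known as a subunit associated with complex IV. The names also caught Atp5c1-ps, a pseudogene, and Atp5s and Atp5sl, whose current names are Dmac2l and Dmac2 and which are not counted as subunits of the ATP synthase. Leaving these 3 out left 81 genes.

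The samples were pooled ureters of wildtype NMRI mice of postnatal day 0, explanted and kept for 18 h in medium with 10 uM cyclopamine or with its solvent diluted 1 in 1000. The 2 two-colour Agilent arrays each set 1 treated pool beside 1 untreated pool. On replicate 1 both pools were female, the control was green and cyclopamine red. On replicate 2 both pools were male and the dyes were swapped. With 1 array for each sex, sex and dye orientation cannot be told apart. The labels name the solvent as DMF and the study's methods as ethanol, and a source name of the treated channel gives IWP-2 where the title and treatment give cyclopamine. All values below are log2 ratios of cyclopamine over control, turned for the dye swap, so that a negative value is a lower signal with cyclopamine.

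The respiratory chain passes electrons from NADH (complex I) and succinate (complex II) through complex III and the mobile carrier cytochrome c to oxygen at complex IV. The protons pumped on the way drive ATP synthesis by complex V, the ATP synthase. Most subunits are small proteins encoded in the nucleus by short transcripts, whereas the catalytic and iron-sulphur core holds some much larger ones. Several complex IV subunits exist as a widespread form and as a form restricted to muscle, brown fat, lung or testis.

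The promoters of these genes are known for sites of the factors NRF1, GABPA, YY1 and ESRRA. RefSeq promoter windows of 300 bases (GRCm38.p6, from 250 bases before the annotated start) were used for 63 of the 81 genes, and 1 core per factor was searched on both strands. The NRF1 core GCGCATGC, whose reverse complement GCATGCGC can overlap it, lay in 9 of the 63 genes (14.3%) and in 3.05% of 27025 genes with a window. The YY1 core ATGGCGGC lay in 6 of the 63 (9.52%) and in 2.6% of all. It lay before the annotated start in Ndufa7, but began 19 to 38 bases after it in Ndufb5, Ndufs7, Ndufa9, Ndufs6 and Ndufs4. The core begins with ATG, and whether these matches are start codons was not worked out. The GABPA core CCGGAAGT lay in 4 (6.35%, against 4.31% of all) and the ESRRA core TCAAGGTCA in 2 (3.17%, against 0.466%). A match describes the letters of the window and not binding. The 4 windows printed here were picked after their values were seen. Cycs, Uqcrc1 and Ndufa11 share the NRF1 core and had very different ratios on replicate 1, and Ndufa9 shows the YY1 core just inside the transcript. Capitals mark the cores. They are Cycs at chr6:50566520-50566819 on the minus strand, Uqcrc1 at chr9:108936398-108936697 on the plus strand, Ndufa11 at chr17:56717512-56717811 on the plus strand and Ndufa9 at chr6:126849095-126849394 on the minus strand, each written 5′ to 3′.
Cycs: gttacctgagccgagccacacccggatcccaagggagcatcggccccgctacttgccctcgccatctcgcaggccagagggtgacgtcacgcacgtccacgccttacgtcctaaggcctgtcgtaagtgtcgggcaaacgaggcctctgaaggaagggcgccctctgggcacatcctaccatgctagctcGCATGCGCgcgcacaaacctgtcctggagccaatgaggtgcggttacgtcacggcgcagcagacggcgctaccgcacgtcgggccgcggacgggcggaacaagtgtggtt
Uqcrc1: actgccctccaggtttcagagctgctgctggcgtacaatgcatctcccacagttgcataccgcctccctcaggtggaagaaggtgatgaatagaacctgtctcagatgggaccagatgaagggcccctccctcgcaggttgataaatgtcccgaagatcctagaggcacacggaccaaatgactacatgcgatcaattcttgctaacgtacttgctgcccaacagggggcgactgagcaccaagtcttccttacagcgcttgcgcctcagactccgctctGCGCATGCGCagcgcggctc
Ndufa11: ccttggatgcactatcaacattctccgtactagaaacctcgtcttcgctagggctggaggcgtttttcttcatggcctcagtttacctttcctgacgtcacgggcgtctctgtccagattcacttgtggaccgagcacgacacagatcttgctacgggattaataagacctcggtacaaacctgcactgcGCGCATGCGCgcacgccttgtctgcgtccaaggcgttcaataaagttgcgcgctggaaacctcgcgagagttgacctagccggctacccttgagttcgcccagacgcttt
Ndufa9: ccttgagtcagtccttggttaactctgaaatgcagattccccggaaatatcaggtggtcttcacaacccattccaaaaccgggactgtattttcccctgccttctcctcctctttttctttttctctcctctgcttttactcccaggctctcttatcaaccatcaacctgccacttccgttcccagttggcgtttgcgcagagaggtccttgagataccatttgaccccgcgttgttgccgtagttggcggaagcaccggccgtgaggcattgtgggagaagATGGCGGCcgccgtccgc
Counted from the annotated start, the core began at -60 in Cycs and at -60 and -58, on the 2 strands, in Ndufa11. In Uqcrc1 it began at 30 and 32, on the 2 strands, and the YY1 core of Ndufa9 began at 32.

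Across the members, the log2 ratio was below 0 for nearly every gene on replicate 1 and close to 0 on replicate 2. Of the 84 genes, 83 passed the filter on dim probes, which asked for a signal well above background in at least 1 group on both arrays, and 82 met it in all 4 channels. The median log2 ratio of the 83 was -0.45 on replicate 1, a difference of -26.6%, and -0.08 on replicate 2, a difference of -5.29%. The medians of all 19346 genes tested were -0.0028 and -0.00053. On replicate 1, 75 of the 83 members (90.4%) were below 0, against 50.2% of all genes. On replicate 2, 64 (77.1%) were below 0, against 50.1%. Both arrays gave a negative ratio for 59 members, which is 71.1% of them, beside 29.0% of all genes tested. Both gave a positive ratio for 3 members and the arrays disagreed on 21. Of all 19346 genes tested, 5539 were positive on both and 8199 had opposite directions, so disagreement was not more common among the members. The change was larger in size on replicate 1 for 80 of the 83. The same count was not made for all genes, but their ratios were also spread more widely on replicate 1 (SD 0.45) than on replicate 2 (SD 0.30). On replicate 1, 60 members lay at or below the lower quartile of all genes, and on replicate 2, 24 did.

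No member passed a test for a change over both arrays. By limma across all probes, with Benjamini-Hochberg adjustment at 0.05, 0 members were called lower, where 0.868% of all genes were, and 0 were called higher, where 0.439% were. At an unadjusted p under 0.05, 4 members were lower (4.82%) and none was higher, where 932 of all genes (4.82%) were lower and 820 (4.24%) higher, so that the members' share was that of any gene. The study filtered on a control intensity over 100 and a 1.5-fold change without stating how the arrays were combined. Asked of each array, with the same direction on both, this filter took 0 members as lower, where 0.630% of all 13645 genes of that intensity were, and 0 as higher, where 0.213% were. Asked of the mean of both arrays, it also took 0 as lower and 0 as higher, where 1.32% and 1.03% of all genes passed. The treatment itself was visible on both arrays. Gli1, a transcriptional target of SHH signalling, had log2 ratios of -1.83 and -2.09 (limma adjusted p = 1.76e-08), and Ptch1, the SHH receptor and a target, -1.13 and -1.49 (adjusted p = 0.000248). The third target checked, Hhip, had -0.31 on replicate 1 and -1.99 on replicate 2.

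**Figure D1:**
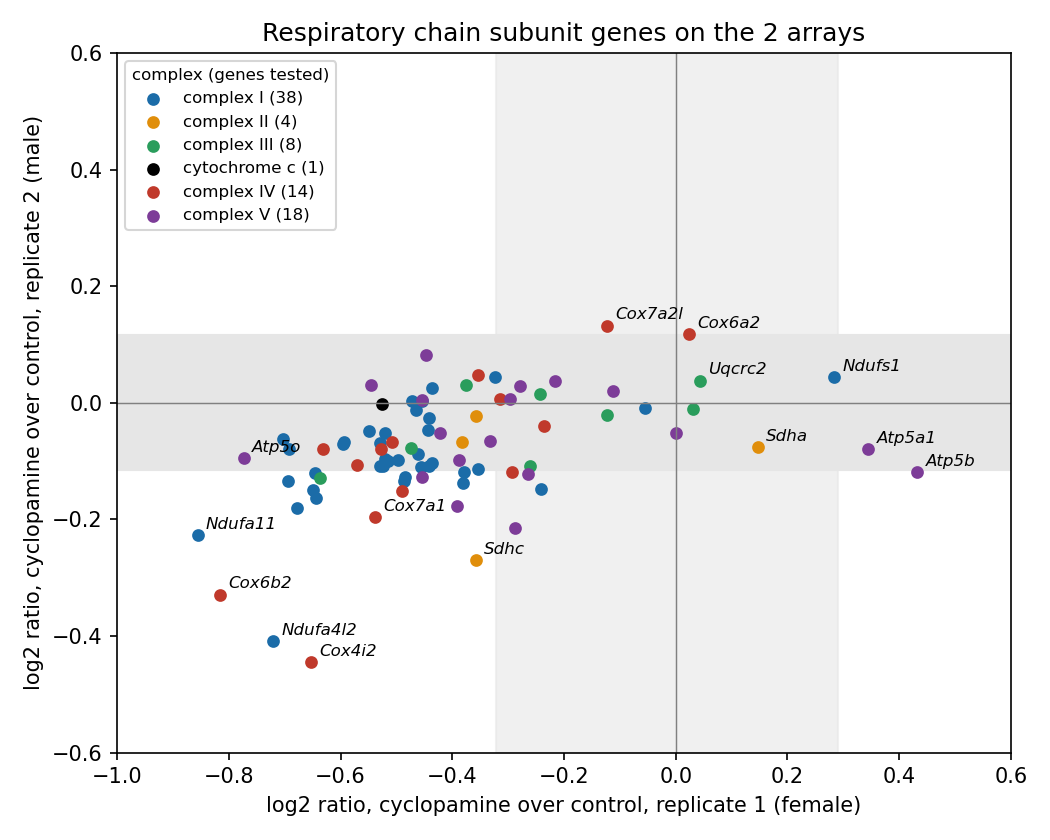
Each point is 1 of the 83 members tested, with its log2 ratio of cyclopamine over control on replicate 1 (horizontal axis) and replicate 2 (vertical axis), coloured by complex, and the grey bands span the interquartile range of all 19346 genes tested on each array. Most members form a cloud near -0.45 on replicate 1 and -0.08 on replicate 2, with Atp5b, Atp5a1, Ndufs1 and Sdha to the right and Cox4i2, Ndufa4l2, Cox6b2 and Ndufa11 at the lower left.

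By complex, the median log2 ratio on replicate 1 ran from -0.25 for complex III to -0.50 for complex IV, with -0.49 for complex I, -0.36 for complex II and -0.31 for complex V. On replicate 2 it lay between -0.10 for complex I and -0.02 for complex III. Complex I was the most uniform by count, with 37 of its 38 genes below 0 on replicate 1 and 33 below 0 on both arrays. Its values ran from -0.86 to 0.28 on replicate 1, where Ndufs1 was its gene above 0. On replicate 2 they ran from -0.41, for Ndufa4l2, to 0.04. In complex IV, 10 of the 14 genes tested were below 0 on both arrays, and in complex V 8 of 18. Complex II had 3 of 4 and complex III 4 of 8. The 18 names of complex V include Atp5c1-ps, Atp5s and Atp5sl, which are not subunits and had opposite directions on the arrays.

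The 2 complex I subunits chosen by name for description behaved in opposite ways on replicate 1. Ndufs1, the large iron-sulphur subunit of complex I, had processed intensities of 16336 in control and 19878 with cyclopamine on replicate 1, and of 3524 and 3635 on replicate 2. Its log2 ratios were 0.28 and 0.04 (mean 0.16 ± 0.17, SD, n = 2 arrays; limma adjusted p = 0.862). Ndufs1 was thus higher with cyclopamine on both arrays, but by less than the fit could tell from 0. Ndufa9, a complex I subunit of the matrix arm, read 16219 and 11933 on replicate 1 and 2492 and 2413 on replicate 2, for log2 ratios of -0.44 and -0.05. Both arrays put Ndufa9 lower with cyclopamine, the second by little.

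Sdha, the flavoprotein of complex II, read 20195 in control and 22367 with cyclopamine on replicate 1, and 4521 and 4289 on replicate 2. Its ratios of 0.15 and -0.08 point in opposite directions. Sdhb, the iron-sulphur partner of Sdha, had ratios of -0.38 and -0.07, so the partners differed on replicate 1 and had about the same value on replicate 2. The membrane anchor Sdhc, which had -0.36 and -0.27, had close values on the 2 arrays (mean -0.31 ± 0.06, SD, n = 2). Sdhd, the other anchor, had -0.36 and -0.02.

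The core proteins of complex III, Uqcrc1 and Uqcrc2, had ratios close to 0. Uqcrc1 had log2 ratios of 0.03 and -0.01, and Uqcrc2 of 0.04 and 0.04. Uqcrb, a small subunit of the same complex, read 24058 in control and 15470 with cyclopamine on replicate 1, a log2 ratio of -0.64, and 3449 and 3152 on replicate 2, a ratio of -0.13. Cycs, which encodes cytochrome c, read 44355 and 30802 on replicate 1 (log2 ratio -0.53) and 7061 and 7051 on replicate 2 (log2 ratio -0.0021). The lower signal of Cycs was thus seen on replicate 1 and not on replicate 2.

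In complex V, the catalytic subunits Atp5b and Atp5a1 stood at the top of the replicate 1 range. Atp5b read 67300 in control and 90801 with cyclopamine on replicate 1, a difference of 34.9%, and 23507 and 21647 on replicate 2, a difference of -7.91%, for log2 ratios of 0.43 and -0.12. Atp5a1 had log2 ratios of 0.34 and -0.08. Atp5o, the stalk subunit that links the catalytic head to the membrane part, was at the other end, with 13560 and 7936 on replicate 1 and 1926 and 1802 on replicate 2 (log2 ratios -0.77 and -0.10). Atp5g2, 1 of 3 genes for the membrane ring, had 0.00070 and -0.05, whereas Atp5g1 had -0.39 and -0.18 and Atp5g3 -0.45 and -0.13. Genes for the same enzyme were therefore spread over more than 1 log2 unit on replicate 1 and by far less on replicate 2. The SD over the 18 genes put with complex V, with Atp5c1-ps, Atp5s and Atp5sl included, was 0.29 on replicate 1 and 0.08 on replicate 2. Over all genes tested it was 0.45 and 0.30, so replicate 1 was the wider array in general. The pseudogene Atp5c1-ps had -0.30 and 0.01, and its probe and those of Atp5c1 (-0.11 and 0.02) may each bind transcripts of the other.

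The 4 members named next had the lowest mean ratios of the 82 well above background in all 4 channels. They are the 4 counted above at an unadjusted p under 0.05, a share of the members no larger than that of all genes, and none passed the adjustment. Cox6b2, known as the testis form of a small complex IV subunit, read 2607 in control and 1482 with cyclopamine on replicate 1 and 284 and 226 on replicate 2. Its log2 ratios were -0.82 and -0.33 (mean -0.57 ± 0.34, SD, n = 2; limma adjusted p = 0.327). Ndufa4l2, a relative of Ndufa4 known as a target of hypoxia-inducible factor, read 3226 and 1958 on replicate 1 and 363 and 273 on replicate 2, for ratios of -0.72 and -0.41 (mean -0.56 ± 0.22, SD, n = 2; adjusted p = 0.334). Cox4i2, the lung and smooth muscle form of a complex IV subunit, read 920 and 585 on replicate 1 and 130 and 95.2 on replicate 2, for ratios of -0.65 and -0.44 (mean -0.55 ± 0.15, SD, n = 2; adjusted p = 0.358). Ndufa11, a membrane arm subunit of complex I, read 12517 and 6917 on replicate 1 and 1360 and 1162 on replicate 2, for ratios of -0.86 and -0.23 (mean -0.54 ± 0.44, SD, n = 2; adjusted p = 0.388).

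Cyclopamine was below control on both arrays for each of these 4 genes. Cox4i2, Ndufa4l2 and Cox6b2 also had the 3 lowest ratios on replicate 2. The probes lie on mm9 at chromosome 7, 4703488 to 4703547 (Cox6b2), chromosome 10, 126954149 to 126954208 (Ndufa4l2), chromosome 2, 152590711 to 152590770 (Cox4i2) and chromosome 17, 56857241 to 56857300 (Ndufa11). Whether a probe lies in coding sequence or UTR was not worked out, since no annotation of that build was used. Ndufb7, of complex I, and Atp5o completed the 6 lowest means, at -0.43 each. The 6 highest were Ndufs1, Atp5b, Atp5a1, Uqcrc2, Sdha and Uqcrc1.

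The complex IV isoforms differed within pairs. Cox4i1, the widespread form, had log2 ratios of -0.35 and 0.05, while Cox4i2 had -0.65 and -0.44. Cox6b1 had -0.63 and -0.08, and Cox6b2 -0.82 and -0.33. Cox7a2, the widespread form, had -0.51 and -0.07, and Cox7a1, the heart and skeletal muscle form, read 393 and 271 on replicate 1 and 53.0 and 46.3 on replicate 2, for ratios of -0.54 and -0.20. On replicate 2 the restricted form had the lower ratio in each of these 3 pairs, by 0.49 for Cox4i, 0.25 for Cox6b and 0.13 for Cox7a. On replicate 1 it was lower by 0.30, 0.18 and 0.03. These differences were not tested. Spots of the dim Cox7a1 probe had an SD of 0.20 on replicate 2, more than the 0.13 of its pair. Cox7a2l, which is needed for supercomplexes and is not a subunit of complex IV alone, had -0.12 and 0.13. Cox6a1 had -0.29 and -0.12, and Cox7b -0.31 and 0.01. The muscle form Cox6a2 was not well above background in part of its spots, with intensities of 20.2 and 20.5 on replicate 1 and 4.93 and 5.35 on replicate 2. Its ratios of 0.02 and 0.12 were above those of Cox6a1, the other way from the 3 pairs, but little can be read from so dim a probe. Cox7b2 was not well above background in either group on either array and was not tested.

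Cox8b, the muscle and brown fat form of Cox8, is not among the members because the rule does not hold its name. It was the only gene of 6 tested subunits outside the rule that passed the study's filter. Cox8b read 1198 in control on replicate 1 and 140 on replicate 2, with log2 ratios of -0.89 and -0.71 (mean -0.80 ± 0.12, SD, n = 2; limma adjusted p = 0.0619). Its adjusted p ran from 0.026 to 0.999 over 9 settings and was under 0.05 in 2 of them. Its widespread counterpart Cox8a had -0.16 and -0.07. Cyc1, the cytochrome of complex III, had -0.56 and 0.01.

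Fat, skeletal muscle and red blood cell markers above background were lower on both arrays, as were Aldh1a2 and 4 of the 6 smooth muscle markers. The restricted isoforms Cox8b, Cox7a1, Cox4i2 and Cox6b2 were too, but this direction was not particular to them. The widespread forms Cox8a, Cox7a2 and Cox6b1 were also lower on both arrays, while Cox4i1 was not. Of the fat markers, 4 of 5 were above background and all 4 were below 0 on both arrays, with medians of -0.43 and -0.88. The summed intensity of all 5 went from 48090 in control to 39637 on replicate 1 and from 8454 to 7068 on replicate 2. Most of it came from Fabp4, which read 44930 and 8274 in control, so the sum says little of the other markers. Ucp1, which defines brown fat, was not above background. Of the skeletal muscle markers, 3 of 5 were above background and all 3 were below 0 on both, with medians of -0.55 and -0.70. The sums over all 5 went from 23576 to 14550 and from 3824 to 2125, though Myog and Myh3 were not above background. Ckm, 1 of the 3 above background (-0.36 and -0.70), is also the study's marker of late smooth muscle in the ureter. The set thus does not mark skeletal muscle alone. Acta1, the skeletal muscle actin, was the marker called by limma, with log2 ratios of -0.82 and -0.89 (adjusted p = 0.0356). The smooth muscle markers, which define the muscle coat of the ureter, had a median of -0.03 on replicate 1 but -0.38 on replicate 2, and the sums went from 303014 to 294923 and from 84562 to 53517. The 6 urothelial markers had medians of 0.15 and 0.11, the 4 macrophage markers 0.27 and -0.14, and the 3 red blood cell markers, all below 0 on both arrays, -0.33 and -0.16. Aldh1a2, the marker of the lamina propria, had -0.62 and -0.65. Of 6 kidney tubule markers 2 were above background, with medians of 0.58 and 0.17. The part of these cells in the ratios of Cox8b, Cox7a1, Cox4i2 and Cox6b2 was not tested. In whole pooled tissue, fewer cells of a type and less RNA per cell cannot be told apart.

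**Figure D2:**
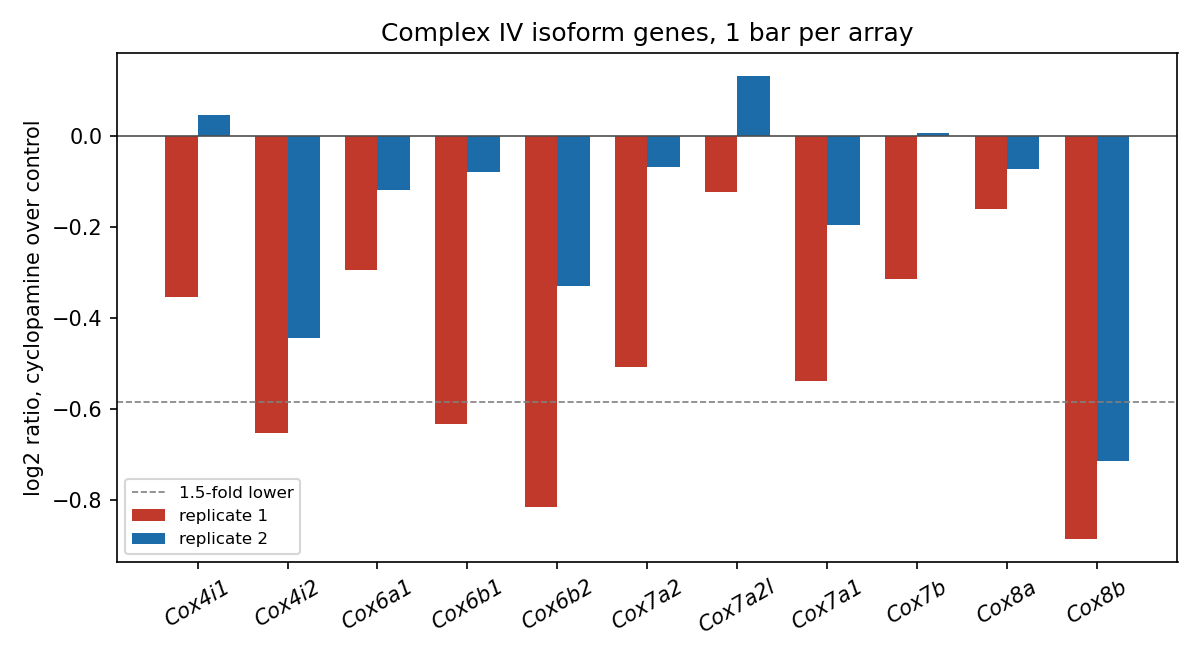
Bars give the log2 ratio of cyclopamine over control on replicate 1 (red) and replicate 2 (blue) for complex IV isoform genes well above background, and the dashed line marks a 1.5-fold lower signal. Cox8b lies below the dashed line on both arrays (-0.89 and -0.71). Cox4i2 (-0.65 and -0.44), Cox6b2 (-0.82 and -0.33) and the widespread form Cox6b1 (-0.63 and -0.08) lie below it on replicate 1 alone.

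Members with an early probe start and members with a late one parted on replicate 1. The array's annotation gives the start of each probe in its transcript, which is a lower bound on the transcript's length. Of 1153 pairs of unspliced probes of 1 transcript lying within 200 bases, 88.2% differed by exactly the same distance on the genome. The median start was 500 bases for the members and 1903 for all genes tested. Across the 18373 genes with a start, Spearman's rho of the log2 ratio with it was 0.60 on replicate 1 and 0.02 on replicate 2. Within the 83 members rho was 0.43 on replicate 1 and 0.25 on replicate 2. Genes are not independent replicates, and all points of an array share its pools and dyes, so these are descriptions.

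Read beside other genes whose probes start as early, the members' ratios on replicate 1 lay closer to those of the rest. Of the members, 42 had a probe start of up to 500 bases, with a median log2 ratio of -0.48 on the first array and -0.08 on the second. The other 1874 genes in this range had medians of -0.35 and -0.0078. Both arrays gave a negative ratio for 81.0% of the members and 44.1% of the others there. Between 500 and 1000 bases, 22 members had medians of -0.50 and -0.10, and 2651 others of -0.36 and -0.03. Only 19 members started later, in ranges of 9, 6 and 4 genes. The 4 members between 2000 and 3000 bases, which were Ndufs1, Sdha, Atp5a1 and Atp5sl, had a median of 0.22 on replicate 1, where 3685 others had 0.15. With the trend along the probe start removed on each array, the members kept a median below 0 on each array, at -0.13 and -0.07. The part of transcript length, or of anything that goes with it, in the members' ratios was not tested.

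**Figure D3:**
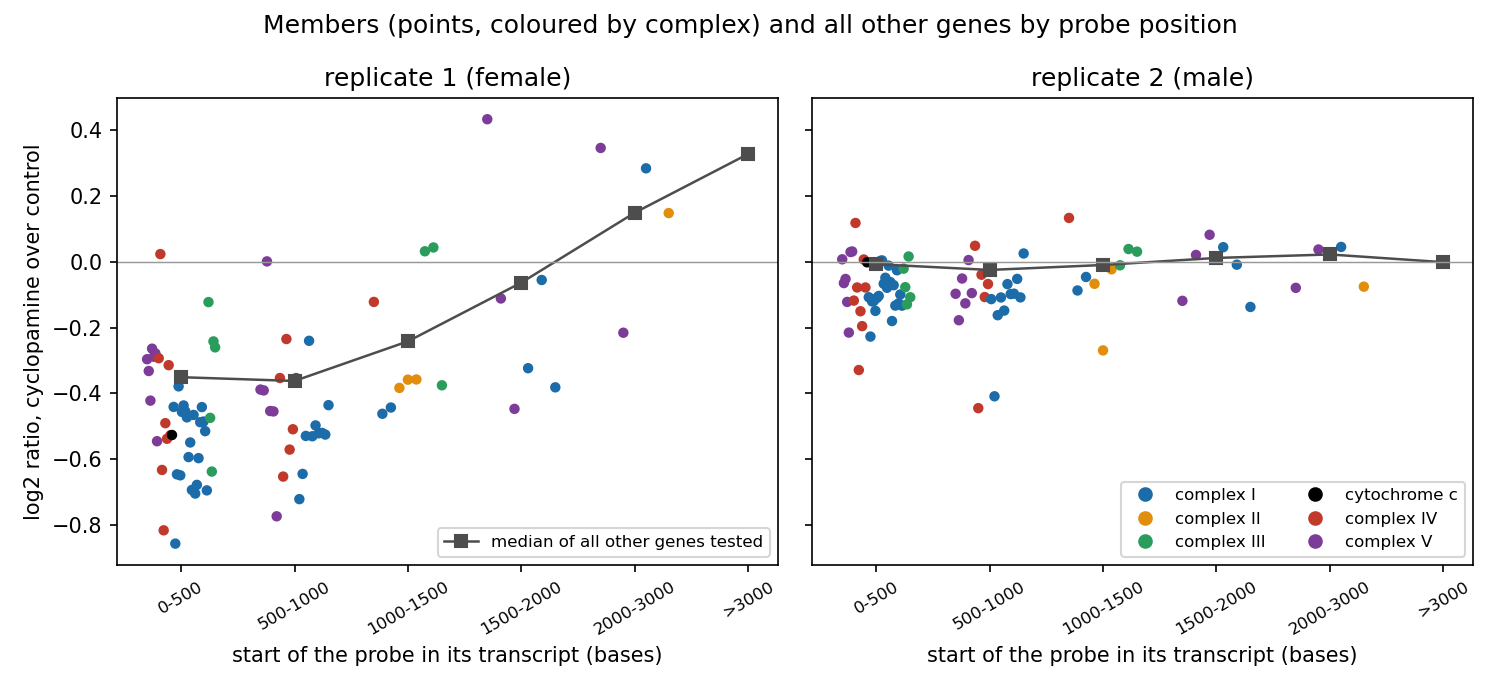
Points are the members' log2 ratios of cyclopamine over control, coloured by complex, in 6 ranges of the probe's start in its transcript (bases), on replicate 1 (left) and replicate 2 (right), with points spread sideways in each range for sight only. Squares give the median of all other genes tested, which climbs from -0.35 to 0.33 on replicate 1 and stays between -0.03 and 0.02 on replicate 2.

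Separate probes of 1 gene gave a second view of this spread. In 30 members with more than 1 probe above background, the range over the probes of a gene had a median of 0.14 on replicate 1 and 0.05 on replicate 2. All probes of a gene had the same sign on replicate 1 in 28 of the 30, and in 29 when only probes well above background in every spot were counted. The brightest probe had the highest ratio of its gene on replicate 1 in 23 of them. Cycs, picked here after its values were seen, had the widest range, with -0.53 and -0.56 for probes starting at 469 and 1039 bases and 0.24 for a probe at 2998 bases. That last probe was close to background, with control intensities of 39.6 and 6.92 and only part of its spots well above it, so little can be read from it. Without it the widest range was that of Uqcr10, 0.46 on replicate 1 and 0.06 on replicate 2. Atp5l had 6 probes that ran from -0.28 to -0.70 on replicate 1. Spots of the same probe differed far less, with a median SD of 0.03 on replicate 1 and 0.02 on replicate 2.

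Other genes of the organelle split in the same way on replicate 1. Assembly factors, which build the complexes without being part of them, had median log2 ratios of -0.48 and -0.04 over 43 genes, and 77 genes of the mitochondrial ribosome had -0.56 and -0.05. Genes of the tricarboxylic acid cycle and pyruvate dehydrogenase, which feed electrons into the chain, had medians of -0.02 and 0.01 over 17 genes, with 4 below 0 on both arrays and 5 above 0 on both. Among them Cs, citrate synthase, had 0.63 and -0.05, and Pdha1, of pyruvate dehydrogenase, 0.22 and 0.22. In these lists no gene was called by limma and none passed the study's filter. The unadjusted limma p was under 0.05 and the mean below 0 for 3 assembly factors (6.98%), 1 gene of the mitochondrial ribosome (1.30%) and no gene of the cycle. Of all genes tested 4.82% were, so these few genes do not set the lists apart.

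The 83 genes of the cytosolic ribosome tested also had early probe starts, with a median of 463 bases, but had median log2 ratios of -0.05 and 0.0055. In the range of up to 500 bases, 49 of them had a median of -0.06 on replicate 1, where the 18 mitochondrial ribosome genes had -0.58 and the 42 members -0.48. An early probe start thus did not go with a low ratio for every list. None of the cytosolic ribosome genes was called by limma, 1 was lower at an unadjusted p under 0.05 and none passed the filter, and with no test of 1 list against another the difference is a description.

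Known regulators of the chain had a median above 0 on replicate 1, with 10 of 15 above 0 and 5 below. The medians were 0.24 and 0.06, with 6 above 0 on both arrays and 0 below 0 on both, and a median probe start of 2849 bases. Ppargc1a, a coactivator that drives mitochondrial biogenesis, had 0.36 and 0.08, and Gabpa, which binds the promoters of subunit genes, 0.38 and 0.15. Nrf1 had 0.21 and -0.07, and Tfam, which packages mitochondrial DNA, -0.26 and 0.05. None of the 15 was called by limma, also at an unadjusted p under 0.05, and their medians with the start trend removed were -0.0082 and 0.03. The same step left the replicate 1 medians of the assembly factors and of the mitochondrial ribosome below 0, at -0.24 each, and put the tricarboxylic acid cycle at 0.13 and the cytosolic ribosome at 0.29. The 9 members with the NRF1 core in their window had medians of -0.45 and -0.07, and the 54 without it -0.46 and -0.08. Within the 9, the ratio on replicate 1 ran from -0.86 for Ndufa11 to 0.03 for Uqcrc1. The 6 members with the YY1 core, Ndufa9 included, ran from -0.53 to -0.44.

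**Figure D4:**
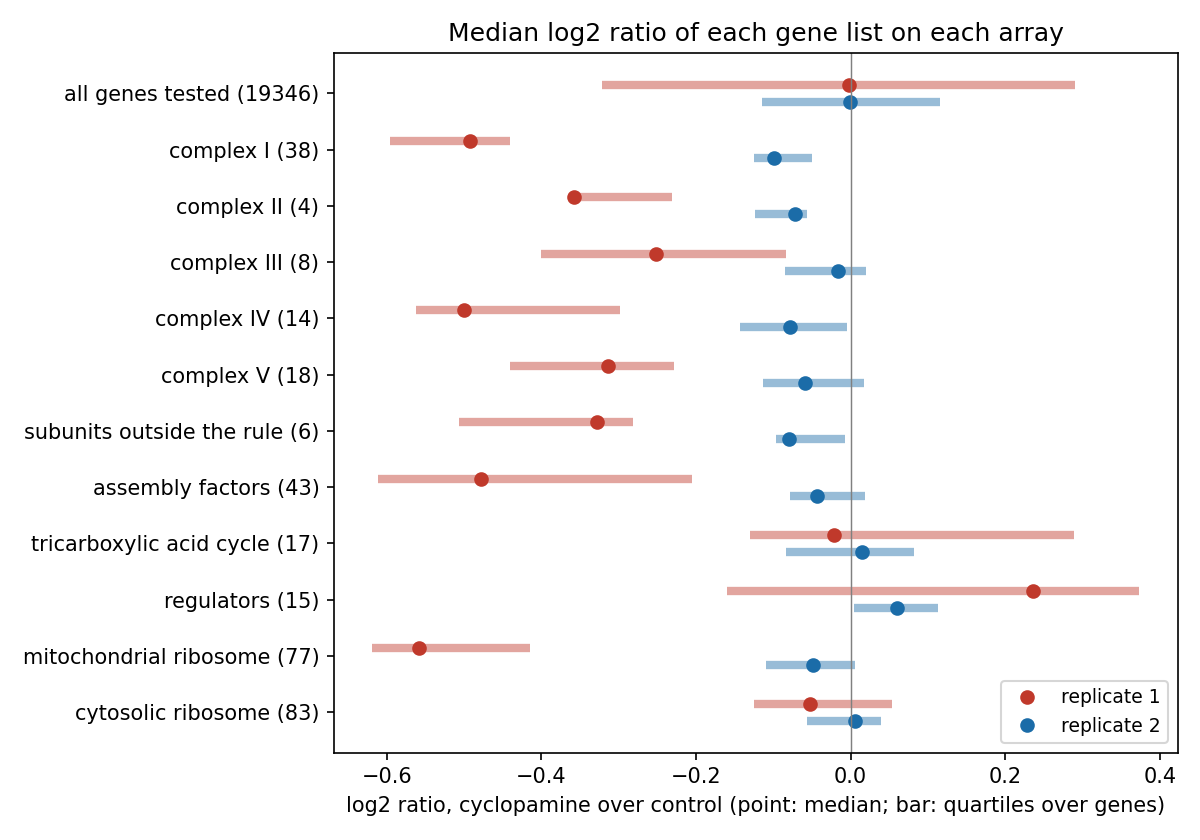
Points are the medians and bars the quartiles over genes of the log2 ratio of cyclopamine over control, on replicate 1 (red) and replicate 2 (blue), with the number of genes tested in brackets. On replicate 1 the complexes, assembly factors and mitochondrial ribosome lie between -0.56 and -0.25 while the regulators lie at 0.24, and on replicate 2 every list lies between -0.10 and 0.06.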

How the data were processed

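Pools of cyclopamine-treated and control ureters were hybridised on 2 dye-swapped arrays. The authors deposited scanner output, in which per the file headers each processed intensity had been background-subtracted, detrended and dye-normalized by linear and LOWESS steps within the array (Agilent Feature Extraction 12.2.0.7, where the labels name 10.7.3.1; mm9 annotation). The deposited log10 ratio equalled that of the processed intensities and was used only to check direction. The authors' series table holds signed fold changes rounded to 1 decimal, a score with no centring stated, whose scale and direction were found by comparison with the scanner values, and it served as an alternative.

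Outlier spots (2.89% and 3.15%) were left out, spots of a probe were averaged, and log2 ratios of cyclopamine over control were computed from the deposited intensities. No spot was saturated. The 75th percentile of control intensity was 3337 on replicate 1 and 628 on replicate 2. The number of arrays limits the precision, and nothing separates pool from array. The p-values rest mostly on a spread between these 2 arrays pooled over all probes tested, and little on a gene's own SD. The moderated standard error was 0.226 for Uqcrc2, with an SD of 0.0034, and 0.231 for Atp5o, with an SD of 0.48. A p-value printed beside an SD is therefore not a test against that SD. Probes well above background in at least 1 group on both arrays (25975) were tested with limma 3.58.1 in R 4.3.3, with 1 residual and 51.93 prior degrees of freedom, and the fit was tested on simulated data. Members matched RefSeq accessions in 78 of 84 cases. Named members were a set of subunits fixed by name, genes called, and the 6 lowest and 6 highest means. The 4 with the largest difference between arrays, complex IV isoforms, members not above background and members with discordant probes were also named. Members, lists and tests were chosen with earlier results of these data known. Alternatives covered background correction, the series table, the dim filter, gene length and probe start trends, all probes of a gene, the prior, 4 separate channels, the filter's limits and leaving out an array.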

Additional observations from a re-analysis of the deposited data

Results flagged for a closer look

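Several members had a ratio above 0 on 1 array and below 0 on the other, so that the female pools (replicate 1) and the male pools (replicate 2) moved in opposite directions. This held for 21 of the 83 members tested and for 8199 of all 19346 genes tested, so it was not particular to the members. With 1 array for each sex the difference between female and male pools was not tested, and sex, dye orientation and replicate cannot be told apart. The female log2 ratio was above the male one for Atp5b by 0.55 (0.43 and -0.12), for Atp5a1 by 0.42 (0.34 and -0.08), for Sdha by 0.22 (0.15 and -0.08) and for Uqcrc1 by 0.0426 (0.03 and -0.01). The female minus male difference was -0.40 for Cox4i1 (-0.35 and 0.05), -0.32 for Cox7b (-0.31 and 0.01) and -0.25 for Cox7a2l (-0.12 and 0.13). Of the list medians, those of the tricarboxylic acid cycle genes differed by -0.0360 (-0.02 and 0.01) and those of the cytosolic ribosome by -0.0577 (-0.05 and 0.0055). The largest differences between arrays among members that kept their sign were -0.68 for Atp5o, -0.64 for Ndufb6, -0.63 for Ndufa11 and -0.61 for Ndufb3.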

How the results depend on the processing

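No member was called by limma under any setting run, which included an intensity trend in the prior and the 4 channels as separate samples with no replicate block (0 lower and 0 higher in each). No paired analysis was possible because each array already is a pair and there is 1 group of ratios. The members' median over both arrays was -0.26 and stayed below 0 in every setting that kept both arrays, between -0.27 with the mean of all probes and -0.10 with the trend along the probe start removed, an alternative chosen after seeing the data. That alternative moved the replicate 1 median from -0.45 to -0.13, gave 8 genes higher on both arrays in place of 3, and turned the complex III median from -0.14 to 0.0291. Removing the trend along genomic gene length gave 7 genes higher on both. The series table, where small changes are rounded to 0, gave 0 higher on both and 41 with opposite or no direction in place of 21. With a fold limit of 1.2 in place of 1.5, 4 members passed the study's filter as lower and 0 as higher. The share of all genes at that limit was not worked out, so the 4 cannot be set beside it. Leaving out an array leaves values with no test: the median ranged from -0.45 to -0.08. Members below 0 ranged from 64 to 75 and those above 0 from 8 to 19. The members lower by the filter ranged from 0 to 16, with replicate 1 alone giving the 16. On that array 1956 of all 19346 genes tested were at least 1.5-fold lower, counted without the intensity limit. The cause of these shifts was not tested. Among the named members no call changed, since none was called, but the sign of the mean turned under at least 1 setting that kept both arrays for Cox4i1, Cox5a, Cox7a2l, Cox7b and Sdha, without replicate 1 for Atp5a1, Atp5b, Cox4i1, Cox7b, Sdha and Uqcrc1, and without replicate 2 for Cox7a2l. The second array is the dimmer, and Cox6a2 and Cox7b2 are too dim on both for a direction to be read.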
